A study of Rattus norvegicus with 8 samples.

Results

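The first day of hypobaric hypoxia was compared with normoxia in the rat hippocampus, using 4 of the 8 arrays of the series: the 2 titled normoxic control and the 2 titled day 1. All arrays carried Cy3-labelled total RNA from the hippocampal region of male Sprague Dawley rats, an outbred stock, with 500 ng of RNA labelled per array. Exposed animals stayed in a chamber from which air was drawn, at the pressure of 25000 ft, giving an effective oxygen concentration of 8%. The other 4 arrays, 2 titled day 3 and 2 titled day 7, entered the fit as further groups and served for a direct contrast. The day 7 group carries 5 days in its exposure field, and its length of exposure is therefore not settled here. The age of the animals is not given in the sources used here. The labels name a second array of each group only as a replicate and do not say that it came from another animal. The p-values below therefore reflect only how far the 2 arrays within a group differ, pooled by limma over all 4 groups and partly over genes. That spread may be technical. All 8 arrays lay on 1 slide, with normoxia in row 1, columns 1 and 2, and day 1 in row 1, columns 3 and 4, so slide position and group cannot be told apart.

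Cells sense low oxygen through the hypoxia-inducible factors (HIF). In normal oxygen the HIF alpha subunits are hydroxylated by prolyl hydroxylases of the Egln family, bound by the von Hippel-Lindau protein (Vhl) and degraded by the proteasome. In low oxygen they persist, pair with Arnt and bind a short DNA core in the promoters and enhancers of genes for glycolysis, glucose uptake, vessel growth and their own hydroxylases. In the brain, vascular endothelial growth factor and angiopoietin-2 loosen and sprout capillaries, and the hippocampus is among the regions most sensitive to lack of oxygen.

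Values are log2 signals after subtraction of the array's 75th percentile, so 0 is the level of the 75th percentile probe, and a difference of 1 is a 2-fold difference. Each difference is day 1 minus normoxia with its standard error, and a gene was called when limma's adjusted p over all 21296 genes tested was under 0.05, with 2 arrays a group. Called genes numbered 7559 (35.5%), of which 3258 (15.3%) were higher and 4301 (20.2%) lower on day 1. Every count of called list members below is to be read beside these shares of all genes. The median difference over all genes was -0.07, and 89.9% of the calls were under 2-fold. That median depended on brightness, at -0.40 in the dimmest decile of genes and -0.007 in the brightest. On day 1 only, 606 genes were not well above background, and in normoxia only, 42. Called differences of at least 2-fold numbered 761 (3.57%), 313 higher (1.47%) and 448 lower (2.1%). That split, 41.1% higher, depended on the scaling, with 56.4% higher after quantile normalization and 62.6% among the 321 genes left after another background correction (normexp). Both day 1 arrays lay on 1 side of both normoxia arrays for 74.9% of genes, above in 30.1% and below in 44.8%, so a lack of overlap alone is common in these data. The median absolute difference between the 2 arrays of a group was 0.076 in normoxia and 0.061 on day 1, and 84.5% to 85.6% of spots were well above background in normoxia and 80.6% to 82.1% on day 1. Without 1 array the 7559 calls became 4350 or 4382 (first or second day 1 array left out) and 5057 or 4984 (first or second normoxia array left out), and 3561 genes were called in the same direction in all 4 of these fits. Of the 761 genes at least 2-fold different, 545 were. Counts below that are followed by 4 numbers "with 1 array left out" give them in that order.

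The labelled tissue was checked against markers of the hippocampal CA fields and dentate gyrus, and 22 of 24 listed markers were tested. Their summed signal, in units of the array's 75th percentile, was 68.5 to 70.8 in normoxia and 73.3 to 73.5 on day 1, with 6 members called higher and 9 lower. The sum of the 11 CA field markers was 55.1 to 57.2 in normoxia and 44.1 to 44.6 on day 1, and that of the 11 dentate markers 13.4 to 13.6 against 28.9 to 29.2. The dentate sum rose although 5 of its markers were called lower and 4 higher, with a median difference of -0.25. The dentate part holds Penk, the enkephalin precursor, which the striatal list holds too. Penk measured 0.01 and -0.02 in normoxia and 3.17 and 3.16 on day 1, which makes up only part of the rise in the dentate sum. All 20 tested striatal markers were called higher on day 1, with a median difference of 2.40 and a summed signal of 112 to 113 against 27.6 to 27.7 in normoxia. Like all lists here, the striatal list was chosen with earlier results of these data known, so its count is no independent check. The same holds for the choroid plexus list below. The adenosine receptor Adora2a, a gene of striatal indirect-pathway neurons, measured -3.10 and -3.04 in normoxia and 1.54 and 1.54 on day 1. The striatal receptor Gpr6 was not well above background in normoxia. Of 22 choroid plexus markers, 21 were called lower, with a median difference of -2.98 and a summed signal of 6.53 to 6.65 on day 1 against 131 to 141 in normoxia. Ttr, the thyroid hormone carrier secreted by that epithelium, fell by 6.52 on the log2 scale (6.83 and 6.96 in normoxia, 0.35 and 0.40 on day 1), and Tmem27, Cldn2, Kl, Mfrp and Prlr were not well above background on day 1. The day 3 arrays had a choroid plexus sum of 172 to 184 and a striatal sum of 24.0.

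Leptomeningeal and fibroblast markers were called lower in 15 of 17, with sums of 64.9 to 67.4 in normoxia and 31.7 to 31.9 on day 1. Thalamic markers were called lower in 10 of 16 and higher in 4, with sums of 27.8 and 23.5. Midbrain dopamine neuron markers were called lower in 8 of 12, with sums of 14.4 to 15.4 and 8.41 to 9.15, and hypothalamic markers were called lower in 7 of 12 (5, 4, 6 and 5 with 1 array left out), with sums of 4.36 to 4.44 and 2.75 to 2.80. Red blood cell markers were called higher in 10 of 13, with sums of 176 to 192 in normoxia and 302 to 312 on day 1. These lists share genes with some of the groups below. The part of the tissue surrounding the hippocampus and of blood in the results that follow was not tested. In bulk tissue, fewer cells of a type and less RNA per cell cannot be told apart.

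**Figure D1:**
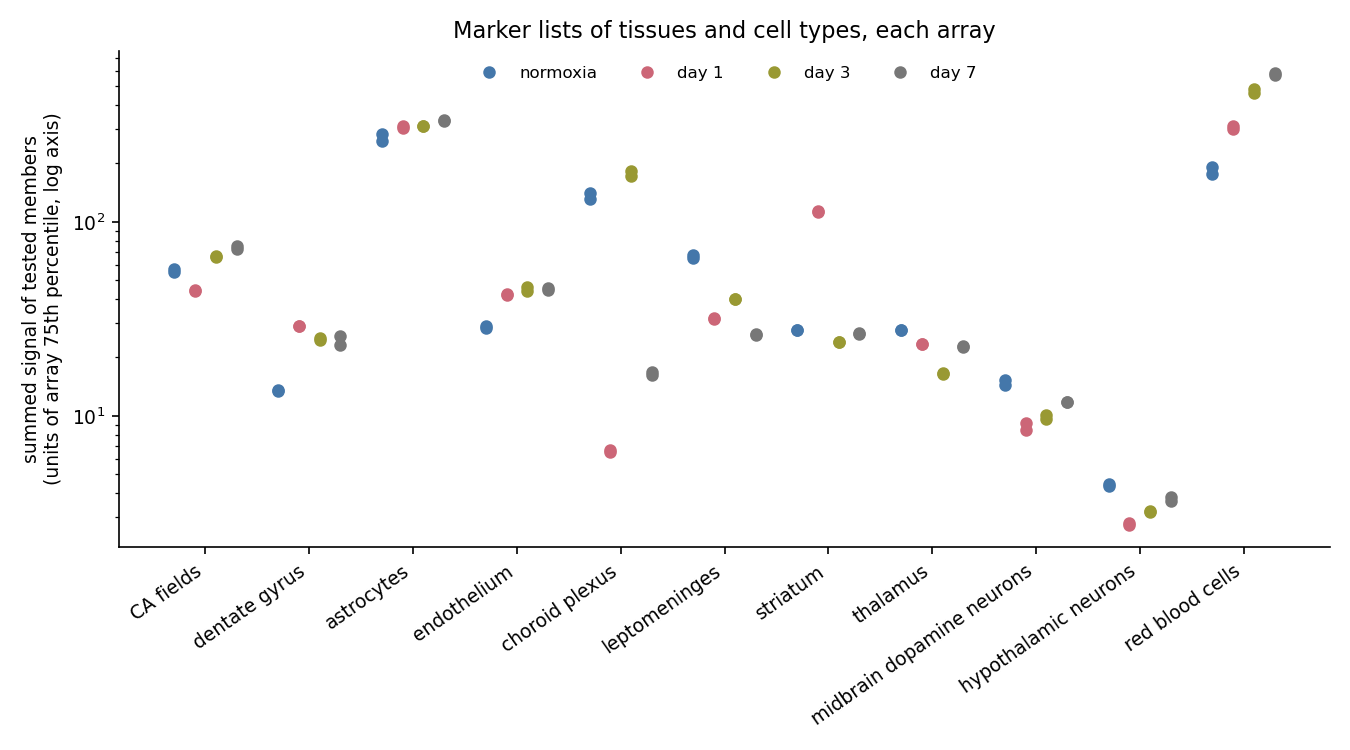
Summed signal of the tested members of 11 marker lists on each of the 8 arrays, in units of the array's 75th percentile on a log axis, coloured by group. The lists were chosen with earlier results of these data known. Of the 11 dentate markers 4 were called higher and 5 lower on day 1. The day 1 arrays stand apart for the striatum (112 to 113 against 27.6 to 27.7 in normoxia) and the choroid plexus (6.53 to 6.65 against 131 to 141), while the CA field markers lie at 44.1 to 44.6 on day 1 against 55.1 to 57.2 and the dentate markers, with Penk among them, at 28.9 to 29.2 against 13.4 to 13.6.

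The 12 largest rises were led by Angpt2, angiopoietin-2, and held several striatal genes beside it. Lhx8, a transcription factor of cholinergic neurons of the basal forebrain, rose from -6.29 and -6.16 to -1.79 and -1.75, a difference of 4.45 ± 0.10 (adjusted p = 2.83e-05). Mall, a membrane protein of the MAL family, rose from -2.81 and -2.86 to 1.01 and 0.97. Gpr6 was at least 5.42-fold higher (adjusted p from limma in the fit of all genes), Liph, a phospholipase, at least 7.27-fold and Defb17, a defensin, at least 4.64-fold, the lower group being set at the array's lowest signal called well above background. Of the 12 largest falls 8 were listed choroid plexus markers. Sostdc1, a secreted antagonist of bone morphogenetic proteins and Wnt, fell from 1.48 and 1.39 to -4.96 and -5.03, and Kcnj13, an inward rectifier potassium channel of that epithelium, from -0.23 and -0.28 to -5.21 and -4.99. Lower bounds on the fall were 44.9-fold for Tmem27, 18.5-fold for Glycam1, 12.6-fold for Mfrp and 11.1-fold for the tight junction gene Cldn2.

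In the oxygen sensing machinery 5 of 9 tested hydroxylases and partners were called higher and 1 lower, and 1 of 5 HIF subunits was called higher. Egln1, the main prolyl hydroxylase that marks HIF for destruction and itself a HIF target, measured -1.79 and -1.74 in normoxia and -0.63 and -0.61 on day 1, a rise of 1.15 ± 0.05 (adjusted p = 0.000195). Egln3, a second hydroxylase of the family, measured -1.07 and -1.15 against -0.49 and -0.53, a rise of 0.59 ± 0.04 (adjusted p = 0.000737). Egln2 rose by 0.36 and Vhl by 0.41. Hif1a, the inducible alpha subunit, measured -2.48 and -2.43 against -2.30 and -2.17 and was not called, at 0.22 ± 0.07 (adjusted p = 0.0540). Epas1, which encodes HIF-2 alpha, was not called either, at -0.07 ± 0.05. Arnt, the partner subunit, was not well above background on day 1. Of 14 tested members of the list, 6 were called higher (4, 4, 5 and 4 with 1 array left out) and 1, the asparaginyl hydroxylase Hif1an, was called lower (0 in each such fit).

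HIF target genes outside glycolysis were higher on day 1 in 22 of 35 tested members (62.9%, against 15.3% of all genes) and lower in none, with a median difference of 0.37 against -0.07 over all genes. The summed signal of the list was 99.2 to 99.3 in normoxia and 148 to 149 on day 1. Vegfa, the growth factor that drives capillary sprouting, measured 1.61 and 1.52 in normoxia and 4.23 and 4.27 on day 1, a rise of 2.68 ± 0.07 (6.43-fold, adjusted p = 3.65e-05), and its 3 other probes gave 2.24 to 3.13. Adm, the vasodilator peptide adrenomedullin, rose from -1.69 and -1.72 to 0.10 and 0.09. Stc2, stanniocalcin-2, a secreted glycoprotein, rose by 1.57 ± 0.14, but was not called with the deposited values. The intracellular target Ankrd37, an ankyrin repeat protein, measured -0.94 and -0.94 against 0.43 and 0.45. In each of these genes the groups did not overlap.

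Collagen-modifying and glycogen enzymes followed among the targets. Plod2, a lysyl hydroxylase of collagen, rose from -2.05 and -2.01 to -0.86 and -0.87, and P4ha1, a collagen prolyl hydroxylase, by 0.99 ± 0.04. Gbe1, the glycogen branching enzyme, rose by 1.00 ± 0.06 and Ppp1r3c, which targets a phosphatase to glycogen, by 0.62 ± 0.03. Bnip3, a mitophagy receptor, measured 4.21 and 4.30 against 4.85 and 4.85, a rise of 0.60 ± 0.05. Smaller rises were seen for Kdm3a, a histone demethylase, at 0.53, and Ndrg1, a stress-induced differentiation gene, at 0.38. The rises of Bnip3l (0.32), a relative of Bnip3, and of Ddit4 (0.22), an inhibitor of mTOR signalling, were lost in 3 and in 4 of the 4 fits with 1 array left out. Epo, erythropoietin, at -0.12, and Car9, a carbonic anhydrase often used as a hypoxia marker, at 0.06, were not called.

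The promoter sequences of 3 called HIF targets that hold several copies of the HIF core are shown, 250 bases upstream of the RefSeq start of each gene in build GRCr8, read along the gene's strand. Capitals mark the letters ACGTG or GCGTG on either strand. The windows are Ankrd37 (chr16:53001257-53001506, plus strand), Slc2a1 (chr5:138002272-138002521, plus strand) and Bnip3 (chr1:203154963-203155212, minus strand), with 4 matches each, where CACGTG counts once on each strand.
Ankrd37: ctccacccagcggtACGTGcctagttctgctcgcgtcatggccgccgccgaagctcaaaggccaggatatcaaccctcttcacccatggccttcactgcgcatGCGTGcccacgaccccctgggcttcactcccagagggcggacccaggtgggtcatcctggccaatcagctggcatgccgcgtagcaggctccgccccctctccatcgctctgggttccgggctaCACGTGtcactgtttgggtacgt
Slc2a1: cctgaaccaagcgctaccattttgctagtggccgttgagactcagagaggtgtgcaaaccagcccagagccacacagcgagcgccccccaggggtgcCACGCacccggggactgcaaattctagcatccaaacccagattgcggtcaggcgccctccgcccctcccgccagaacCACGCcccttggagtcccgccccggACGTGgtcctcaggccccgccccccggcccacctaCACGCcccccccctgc
Bnip3: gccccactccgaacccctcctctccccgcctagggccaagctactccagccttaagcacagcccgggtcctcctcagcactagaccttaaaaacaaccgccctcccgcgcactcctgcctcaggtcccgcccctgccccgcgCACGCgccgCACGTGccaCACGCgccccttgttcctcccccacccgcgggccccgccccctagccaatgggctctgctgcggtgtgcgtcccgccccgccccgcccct
Such a core was present in 37.9% of all 27457 promoters of this length, in 51.1% of the 12278 promoters of tested genes, and in 21 of the 30 HIF targets matched in the table. It was present in 15 of the 20 matched targets called higher. Other lists held it as often, with 13 of 16 matched immediate early genes called higher and 8 of 10 matched metallothionein and zinc genes. Of the 9 matched glycolytic genes called higher 4 held it. This core of 5 bases is thus not particular to the HIF targets. With a further C (ACGTGC or GCGTGC) it was in 9 of those 20 targets and in 19.5% of the promoters of tested genes. That longer core was in 4 of the 16 immediate early genes and in 4 of the 10 metallothionein and zinc genes. The same windows of Vegfa, Adm, Slc16a3 and Egln3 held no match, which says only that these letters are not in that window. The table held no window for Angpt2 or Pgk1.

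The angiopoietins moved in opposite directions. Angpt2, which antagonises the endothelial receptor Tie2 and destabilises vessels, measured -3.81 and -3.82 in normoxia and 1.41 and 1.39 on day 1, a rise of 5.22 ± 0.05 (37.2-fold, adjusted p = 3.30e-06) and the largest among genes with a symbol that were called without overlap. Angpt1, the stabilising ligand of the same receptor, measured -3.55 and -3.59 against -4.27 and -4.24 and fell by 0.69 ± 0.05 (adjusted p = 0.000676). The receptors were not called: Tek, which encodes Tie2, was at 0.27 ± 0.29 and Tie1 at -0.10 ± 0.14. These receptor values, like those of other uncalled members below, are given after their values were seen.

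Within the VEGF family 5 of 9 tested members were called higher (5, 4, 5 and 5 with 1 array left out) and 2 lower. The summed signal of the family was 7.79 to 7.86 in normoxia and 33.7 to 33.8 on day 1. Kdr, VEGF receptor 2, which carries the mitogenic signal, measured 1.58 and 1.64 against 3.67 and 3.63, a rise of 2.04 ± 0.04 (adjusted p = 2.09e-05). Flt1, VEGF receptor 1, a decoy of higher affinity, measured -4.13 and -4.15 against -2.09 and -2.03. Of the other ligands Vegfc, best known in lymphatic vessels, rose by 0.73 ± 0.04 and Vegfb by 0.33 ± 0.05, the latter not called without the second day 1 array. The co-receptor Nrp1 fell by 0.65 ± 0.08, while placental growth factor Pgf, at -0.05, was not called.

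Genes of the sprouting tip cell were split. Apln, the peptide apelin secreted by tip cells, measured 2.0 and 1.92 in normoxia and 4.11 and 4.07 on day 1 (2.13 ± 0.05, adjusted p = 2.42e-05). Dll4, the Notch ligand of tip cells, measured -6.10 and -6.10 against -3.97 and -3.88, and another probe for it gave 0.57. Kcne3, a potassium channel subunit, was at least 5.13-fold higher. The endothelial receptor Notch4 rose by 1.30 ± 0.04 and the ligand Jag1 by 0.64 ± 0.06. Esm1, endocan, a proteoglycan of tip cells, went the other way, from -4.86 and -4.93 to -5.81 and -5.69, and the Notch target Heyl fell by 0.61 ± 0.07. In all, 6 of 20 tested members were called higher (30%) and 4 lower (20%), with a median of 0.06. Among all genes 15.3% were called higher and 20.2% lower, so the lower calls are at the share of all genes. The apelin receptor Aplnr, at -0.38 ± 0.61, was not called.

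**Figure D2:**
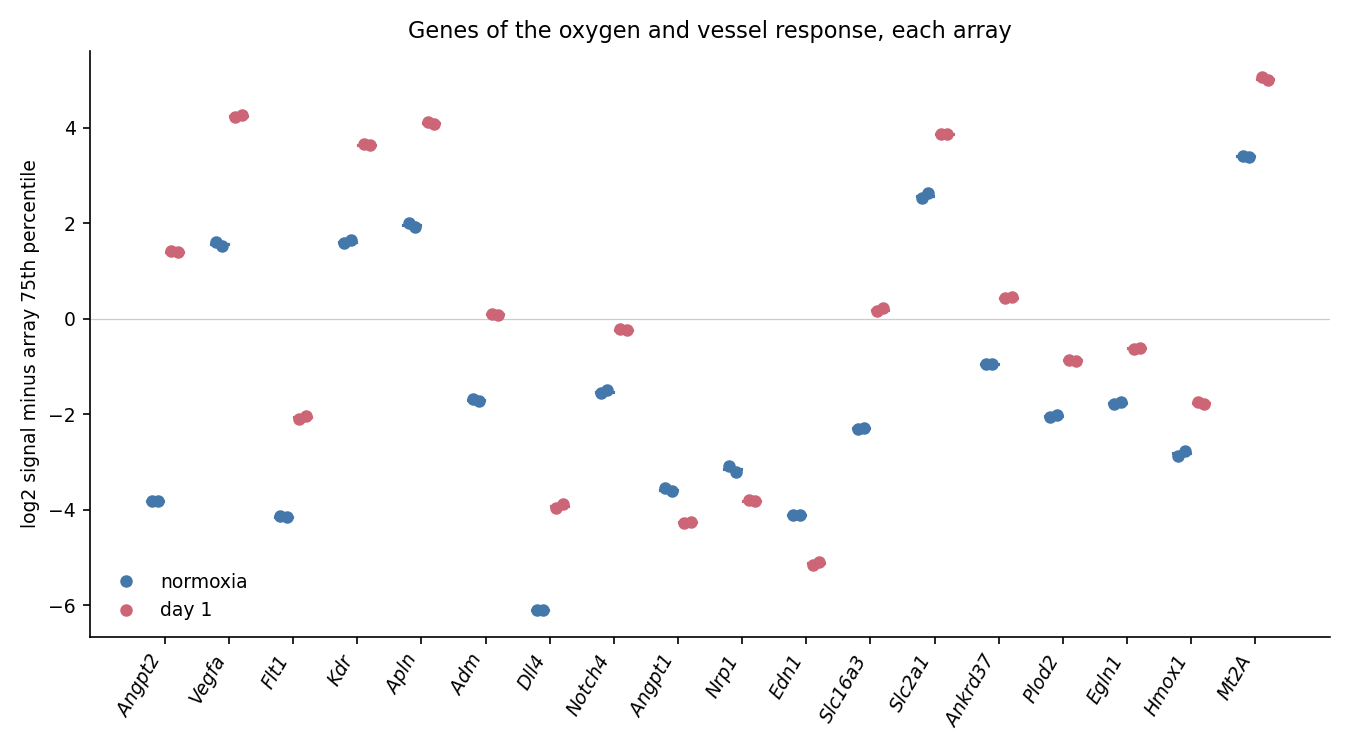
Level of 18 genes of the oxygen and vessel response on each normoxia and day 1 array, in log2 units relative to the 75th percentile of the array, with a bar at each group's mean of 2 arrays. The groups do not overlap for any gene shown; Angpt2 has the widest gap, from -3.81 and -3.82 to 1.41 and 1.39, while Angpt1, Nrp1 and Edn1 are lower on day 1. Heights of different genes are not comparable.

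Of 15 tested genes of the vascular basement membrane 8 were called higher (7, 6, 7 and 6 with 1 array left out) and 1, Lama2 at -0.41, lower. Col4a1, a chain of the main collagen of that membrane, measured 0.10 and -0.01 in normoxia and 2.85 and 2.89 on day 1 (2.82 ± 0.06, adjusted p = 2.09e-05), with 1.56 at its other probe. Its partner chain Col4a2 rose by 1.45 ± 0.07. Fibronectin, Fn1, rose by 1.83 ± 0.05 at the probe used and by 0.37 at another. Nidogen-2 (Nid2) and laminin gamma 1 (Lamc1), which link the network, rose by 1.13 and 0.74. Of 14 tested matrix proteases 5 were called higher, 3 lower and 6 not called, and of 7 inhibitors 4 were called higher and none lower. Adamts1, a secreted metalloprotease that cleaves proteoglycans and binds VEGF, measured -0.01 and -0.04 against 2.88 and 2.88 (2.90 ± 0.03, adjusted p = 4.55e-06). Adamts9, a relative, rose by 2.12 and tissue plasminogen activator, Plat, by 1.66, from 1.68 and 1.67 to 3.34 and 3.32. The gelatinase Mmp2 fell by 0.63 ± 0.07, beside the fall of the leptomeningeal list, and the inhibitor Timp1 rose by 0.47 ± 0.04.

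Genes of the blood-brain barrier moved in both directions. Of 12 junction and caveola genes 5 were called higher and 2 lower, and of 14 transporters 5 higher and 5 lower. Esam, a junctional adhesion molecule of endothelium, measured -1.45 and -1.43 in normoxia and 0.07 and 0.09 on day 1, and Cldn5, the tight junction protein of brain capillaries, 1.92 and 1.96 against 2.97 and 2.93. F11r, another junction molecule, rose by 0.82 and caveolin-1 (Cav1) by 0.70. Among the transporters Abcg2, a drug efflux pump, fell from -0.13 and -0.19 to -2.22 and -2.27 (-2.08 ± 0.04, adjusted p = 2.23e-05). The amino acid transporter Slc38a5 fell by 1.53, the organic anion transporter Slco1a2 by 1.15 and Slco1c1, a thyroxine carrier, by 0.61. In all, 10 of 26 tested members were called higher (6, 8, 8 and 8 with 1 array left out) and 7 lower. Among endothelial markers in general 10 of 20 were called higher and 4 lower, against 15.3% and 20.2% of all genes. Their summed signal was 28.3 to 29.1 in normoxia and 42.2 to 42.4 on day 1. Pecam1, an adhesion molecule of all endothelium, measured -0.11 and -0.08 against 2.37 and 2.38, while Itm2a fell by 1.19.

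Vasodilator and vasoconstrictor genes were also divided. Nos3, the endothelial nitric oxide synthase, measured -2.94 and -2.96 in normoxia and -1.22 and -1.19 on day 1 (1.75 ± 0.04, adjusted p = 3.58e-05), and Gucy1a3, a subunit of the guanylate cyclase that nitric oxide activates, rose by 1.04 ± 0.05. The receptor-activity modifying proteins Ramp1 and Ramp3, which form adrenomedullin and calcitonin gene-related peptide receptors, rose by 0.73 and 0.59. Edn1, the constrictor peptide endothelin-1, measured -4.10 and -4.10 against -5.14 and -5.08, a fall of 1.01 ± 0.08 (adjusted p = 0.00107). The endothelin receptor Ednrb fell by 0.78 and the peptide Edn3 by 0.64. Of 21 tested members 9 were called higher and 6 lower (3 in each fit with 1 array left out).

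Of 10 tested glucose and lactate carriers 5 were called higher (4, 5, 5 and 5 with 1 array left out) and 3 lower (1, 1, 1 and 3), against 15.3% and 20.2% of all genes. Slc16a3, the lactate exporter MCT4 of glycolytic cells, measured -2.30 and -2.29 in normoxia and 0.16 and 0.22 on day 1, a rise of 2.49 ± 0.04 (5.60-fold, adjusted p = 1.40e-05). Slc2a1, the glucose transporter of capillaries and glia, measured 2.53 and 2.62 against 3.86 and 3.86 (1.28 ± 0.04, adjusted p = 7.21e-05). The neuronal carriers Slc2a3 and Slc16a7 were lower, at -0.42 and -0.25, in calls each lost with the normexp background, without the first normoxia array and without either day 1 array. The call for Slc2a3 was also lost with quantile normalization, with the replicate block and with only both compared groups in the fit. Glycolytic enzymes were called higher in 10 of 18 (6, 5, 5 and 7 with 1 array left out) and lower in none, with a median of 0.22. Aldoa, an aldolase, measured 3.01 and 3.00 against 3.75 and 3.71, a rise of 0.72 ± 0.03. The phosphofructokinase Pfkp rose by 0.50 and Gpi, which makes fructose phosphate, by 0.49, and Pgk1 by 0.34. Ldha, which makes lactate, was at 0.37 ± 0.07, a call lost in all 4 fits with 1 array left out.

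Genes that carry pyruvate into mitochondrial oxidation followed. Pdk1, the kinase that inactivates pyruvate dehydrogenase and is a HIF target, rose by 0.35 ± 0.04, while Pdp2, the phosphatase that reactivates the complex, fell from 0.13 and 0.06 to -0.57 and -0.48 (-0.62 ± 0.05). Dld, a subunit of the complex, fell by 0.32. Of 13 tested members of that list 1 was called higher and 5 lower (3, 2, 3 and 3 with 1 array left out). In the tricarboxylic acid cycle 7 of 17 enzymes were called lower (3, 2, 3 and 6) and none higher, with 20.2% of all genes called lower in the fit of all arrays. The fits without a day 1 array, which gave the 3 and the 2, called 2427 and 2493 of the 21296 genes lower. The lowest differences in the cycle were those of Sdhb, a subunit of succinate dehydrogenase, at -0.45 ± 0.04, and Fh, fumarase, at -0.32 ± 0.03.

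Oxidative phosphorylation genes were called lower in 45 of 75 (60%, against 20.2% of all genes) and higher in 1, with a median of -0.22 against -0.07 over all genes. With 1 array left out the 45 became 27, 28, 31 and 33. Complex I had 25 of its 36 tested subunits called lower, complex III 4 of 10, complex IV 5 of 13 and ATP synthase 11 of 16. Ndufa10, an accessory subunit of complex I, measured 2.79 and 2.78 in normoxia and 1.77 and 1.86 on day 1, the lowest difference of the list at -0.97 ± 0.04 (adjusted p = 0.000197). Ndufs7, a core subunit of complex I, fell by 0.62, the complex IV subunits Cox6a2 and Cox7b by 0.70 and 0.44, and the ATP synthase subunit Atp5j2 by 0.50. No member of the list was called with a difference of 2-fold or more.

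Among other large protein complexes, the mitochondrial ribosome and the proteasome had medians below that of all genes and the cytosolic ribosome had not. Mitochondrial ribosomal proteins were called lower in 35 of 66 (18, 18, 22 and 23 with 1 array left out) and higher in 2, with a median of -0.19. Mrps34, of the small subunit, measured 2.63 and 2.65 against 2.14 and 2.16. Mrps36, counted in this list by its symbol only, fell by 0.61. Cytosolic ribosomal proteins were called lower in 4 of 67 (2, 3, 2 and 2) and higher in 4 (0, 0, 1 and 5), shares of 5.97% against 20.2% and 15.3% of all genes, with a median of 0.03 that changes sign under some processing. Proteasome subunits were called lower in 18 of 36 (9, 10, 10 and 10) and higher in 1, with a median of -0.15. Psmc6, an ATPase of the regulatory particle, measured 1.82 and 1.78 against 1.33 and 1.27, and the core subunit Psmb7 fell by 0.35, while Psma3 rose by 0.47. Initiation factors were called lower in 9 of 29 (3, 5, 4 and 5) and higher in 3, among them Eif4b at 0.49.

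**Figure D3:**
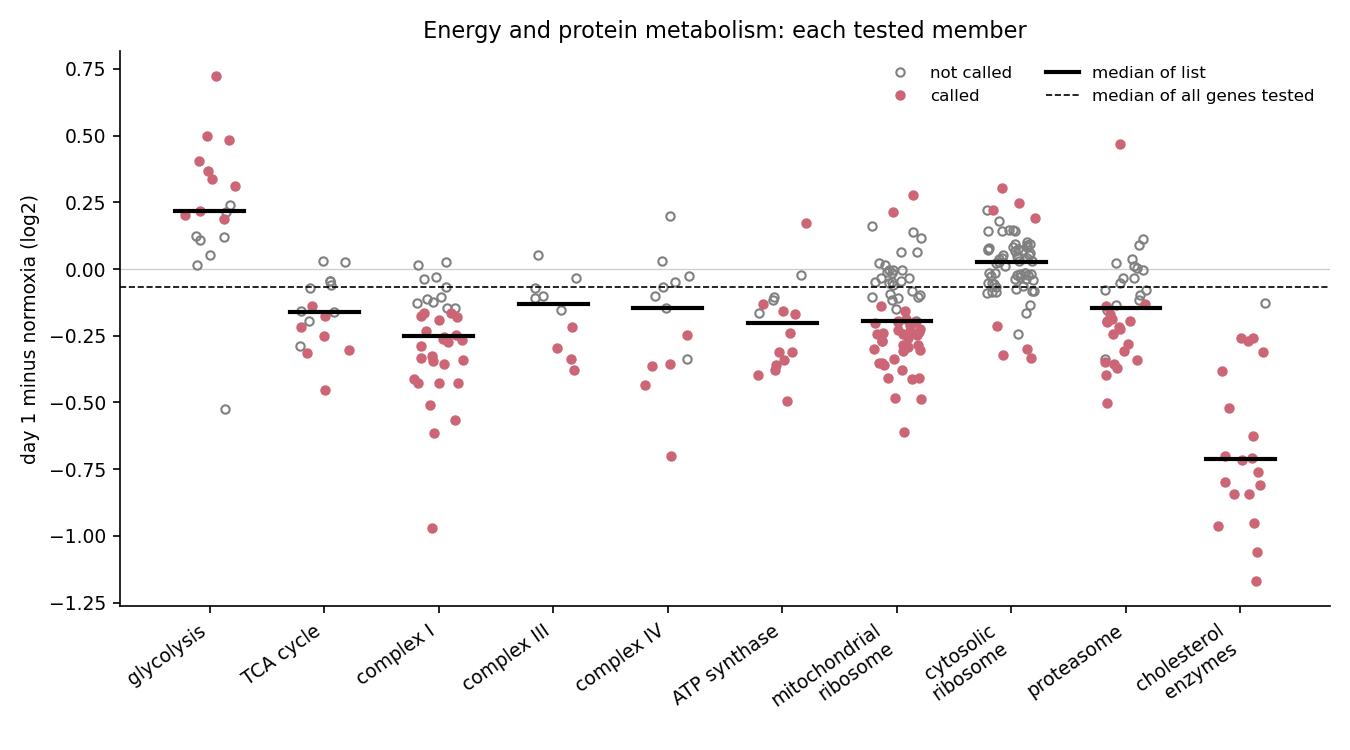
Difference between day 1 and normoxia (log2) for each tested member of 10 groups of metabolic genes; filled points were called, open points were not, the bar is the median of the group and the dashed line the median of all genes (-0.07). Glycolysis lies above the line (median 0.22, 10 of 18 called higher), oxidative phosphorylation, the mitochondrial ribosome and the proteasome mostly below it, and the cholesterol enzymes lowest, with 19 of 20 called lower.

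Cholesterol synthesis was the list of metabolic enzymes with the lowest median, at -0.63. Of 28 tested members 23 were called lower (20, 21, 21 and 20 with 1 array left out) and 1, the lipid transfer protein Stard4, higher, a call lost in each such fit. Of the 20 enzymes themselves 19 were called lower, from the first steps to the last. Hmgcs1, which makes HMG-CoA, measured 5.80 and 5.86 in normoxia and 5.09 and 5.14 on day 1. Mvd, which makes isopentenyl diphosphate, measured 1.52 and 1.60 against 0.36 and 0.42 (-1.17 ± 0.06, adjusted p = 0.000261). The late enzymes Tm7sf2 and Dhcr7 fell by 0.95 and 0.96, and Cyp51, which uses oxygen to demethylate lanosterol, by 0.84. Insig1 and Srebf2, of the sterol sensor, fell by 0.65 and 0.32. Fatty acid synthesis had 6 of 15 lower (4, 4, 5 and 4) and 1 higher. Its lowest member, the desaturase Scd1, which also uses oxygen, measured 0.11 and 0.13 against -1.44 and -1.41 (-1.55 ± 0.04), and fatty acid synthase (Fasn) fell by 0.67.

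Metallothioneins, small cysteine-rich proteins that bind zinc and copper, were divided by isoform. Mt2A measured 3.41 and 3.39 in normoxia and 5.05 and 4.99 on day 1, a rise of 1.62 ± 0.04 (adjusted p = 3.07e-05), with 1.31 at its other probe. Mt1a measured 1.76 and 1.73 against 2.69 and 2.73, a rise of 0.96 ± 0.05 (adjusted p = 0.000299). Mt3, the isoform of neurons and astrocytes, was not called, at -0.19 ± 0.06. Of 11 tested members of the list, which also holds zinc transporters, 5 were called higher and 4 lower (2, 2, 3 and 2 with 1 array left out). The exporter Slc30a1 rose by 0.40 and the importer Slc39a10 fell by 0.53. The promoters of both isoforms that rose are shown, with capitals marking the metal response core TGCGCNC or TGCACNC on either strand. They are neighbours in build GRCr8, Mt2A at chr19:10838709-10838958 and Mt1a, which RefSeq names Mt1, at chr19:10832976-10833225, both on the minus strand, with 4 and 6 matches.
Mt2A: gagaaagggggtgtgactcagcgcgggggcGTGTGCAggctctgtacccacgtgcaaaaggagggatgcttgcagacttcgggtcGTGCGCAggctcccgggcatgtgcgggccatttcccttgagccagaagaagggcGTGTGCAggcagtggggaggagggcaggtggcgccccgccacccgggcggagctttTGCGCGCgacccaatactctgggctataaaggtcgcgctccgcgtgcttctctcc
Mt1a: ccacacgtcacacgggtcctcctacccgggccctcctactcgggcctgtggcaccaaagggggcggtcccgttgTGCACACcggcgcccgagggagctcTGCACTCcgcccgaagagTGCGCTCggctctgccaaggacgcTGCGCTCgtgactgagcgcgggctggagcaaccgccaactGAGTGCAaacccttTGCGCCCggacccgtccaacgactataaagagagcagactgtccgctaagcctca
Such a core was present in 21.2% of all promoters of this length, in 29.3% of those of tested genes and in 7 of the 10 matched genes of the list.

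Stress defences were uneven. Hmox1, haem oxygenase, measured -2.86 and -2.77 in normoxia and -1.74 and -1.77 on day 1 (1.06 ± 0.04, adjusted p = 0.000137), and glutathione reductase (Gsr) rose by 0.50. Antioxidant enzymes were called lower in 11 of 17 and higher in 3, against 20.2% and 15.3% of all genes. The cytosolic superoxide dismutase Sod1 measured 5.15 and 5.14 against 4.83 and 4.80, a fall of 0.33 ± 0.03. The glutathione transferase Gstp1 fell by 0.45, the peroxiredoxin Prdx5 by 0.43 and thioredoxin (Txn1) by 0.38, while the extracellular Sod3 rose by 0.41. Slc7a11, the cystine importer, fell by 0.79 ± 0.03.

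Chaperones of the cytosol and the endoplasmic reticulum were more often higher than lower, beside 15.3% of all genes called higher and 20.2% lower. Hspa1b, the inducible HSP70, measured 0.02 and -0.05 against 0.71 and 0.70, and Hspa4 rose by 0.69, with 8 of 20 heat shock genes called higher (6, 5, 6 and 6 with 1 array left out) and 3 lower. Pdia4, a disulfide isomerase of the endoplasmic reticulum, measured -3.40 and -3.37 against -2.19 and -2.20, and the chaperone Hsp90b1 rose by 0.60. Hspa5, the central sensor chaperone, rose by 0.23 ± 0.03. Of 32 tested genes of the unfolded protein and integrated stress responses 12 were called higher (8, 8, 8 and 9) and 8 lower (3, 3, 7 and 5), and Ddit3, which encodes the death-promoting factor CHOP, was not called, at -0.08.

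The glucocorticoid list, of targets and of receptors and stress peptides, was called higher in 14 of 27 and lower in 3, with a median of 0.22. Of its 21 tested targets 13 were called higher and 1 lower, against 15.3% and 20.2% of all genes. Tgm2, a transglutaminase, measured -0.83 and -0.93 in normoxia and 1.11 and 1.19 on day 1, and Gpd1, a glycerol phosphate dehydrogenase of oligodendrocytes, 3.41 and 3.44 against 4.68 and 4.66. The phosphatase Dusp1 rose by 1.00 ± 0.07. Fkbp5 and Sgk1, classical targets of the receptor, were at 0.30 and 0.29, in calls lost without either day 1 array. The mineralocorticoid receptor Nr3c2 fell by 0.50. Both metallothioneins above belong to this list too.

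Clock genes were called higher in 5 of 17 (3, 4, 3 and 3 with 1 array left out) and lower in 3. The activators Npas2 and Arntl rose, Npas2 from 0.03 and 0.07 to 0.83 and 0.87 and Arntl by 0.49 ± 0.05. The repressors and outputs were split, with 3 of 12 called higher and 3 lower. Per2 and Cry1 fell by 0.54 and 0.60, and Dbp, an output gene, by 0.36. The repressors Bhlhe40 and Nr1d1 rose by 0.49 and 0.36, the latter by 0.27 without the first day 1 array. Per1 was not called, at -0.09. The hour at which tissue was taken is not given in the sources used here.

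Immediate early genes, which neurons switch on within minutes of activity, were called higher in 18 of 34 and lower in 8, against 15.3% and 20.2% of all genes. Plk2, a kinase of active synapses, measured 0.29 and 0.25 in normoxia and 1.04 and 1.01 on day 1. Egr1 measured 2.10 and 2.11 against 2.62 and 2.60, Fos -2.23 and -2.24 against -1.72 and -1.79, and Arc, a synaptic capsid-like protein, 2.23 and 2.22 against 2.59 and 2.61. These 4 rises were between 0.37 and 0.76. Npas4 was at 1.89 ± 0.36, a call lost without the second normoxia array and without either day 1 array. Atf3 fell by 0.85, Nr4a3 by 0.60 and Bdnf, the neurotrophin, from -1.81 and -1.78 to -2.56 and -2.53 (-0.75 ± 0.04, adjusted p = 0.000374).

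Interferon-stimulated genes were called higher in 13 of 23 (8, 8, 11 and 8 with 1 array left out) and lower in 2, with a median of 0.30. Ifit3, an antiviral effector, measured -4.51 and -4.34 in normoxia and -2.33 and -2.41 on day 1 (2.05 ± 0.08, adjusted p = 0.000116). Rsad2, viperin, measured -1.50 and -1.53 against 0.31 and 0.43 (1.88 ± 0.06, adjusted p = 8.23e-05), and Gbp2, a guanylate-binding protein, -1.13 and -1.21 against 0.45 and 0.43 (1.61 ± 0.05, adjusted p = 4.86e-05). Ifitm1 and Mx1 were lower, at -0.78 and -0.72. The list's shares of 56.5% called higher and 8.70% lower stand against 15.3% and 20.2% of all genes. Genes of MHC class I presentation were called higher in 6 of 8 (4, 4, 5 and 4) and lower in none, with RT1-N3 at 1.52 and the peptide transporter Tap2 at 1.18. The promoters of the 3 leading interferon genes each held 1 copy of the interferon response core, 2 copies of GAAA with any 2 bases between them, in capitals, which in all 3 lies on the strand opposite to the one printed. They lie at chr1:241527076-241527325 (Ifit3, plus strand), chr6:48788121-48788370 (Rsad2, minus strand) and chr2:234005477-234005726 (Gbp2, plus strand) of GRCr8.
Ifit3: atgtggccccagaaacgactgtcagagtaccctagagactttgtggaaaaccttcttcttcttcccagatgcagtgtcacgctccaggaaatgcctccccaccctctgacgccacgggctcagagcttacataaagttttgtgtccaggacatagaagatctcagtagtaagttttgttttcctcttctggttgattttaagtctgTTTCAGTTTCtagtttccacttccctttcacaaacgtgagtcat
Rsad2: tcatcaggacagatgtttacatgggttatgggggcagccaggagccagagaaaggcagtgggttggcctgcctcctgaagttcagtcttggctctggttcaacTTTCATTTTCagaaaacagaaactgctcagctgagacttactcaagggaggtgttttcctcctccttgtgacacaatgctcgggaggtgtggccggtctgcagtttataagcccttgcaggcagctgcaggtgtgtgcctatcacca
Gbp2: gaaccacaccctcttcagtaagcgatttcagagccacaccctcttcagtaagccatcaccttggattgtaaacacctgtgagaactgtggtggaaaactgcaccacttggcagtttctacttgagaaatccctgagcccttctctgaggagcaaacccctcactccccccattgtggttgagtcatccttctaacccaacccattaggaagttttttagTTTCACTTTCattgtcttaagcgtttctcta
The core was present on either strand in 3.29% of all promoters of this length, in 2.74% of those of tested genes and in 10 of the 16 matched interferon genes, 8 of them among the 9 matched genes called higher.

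**Figure D4:**
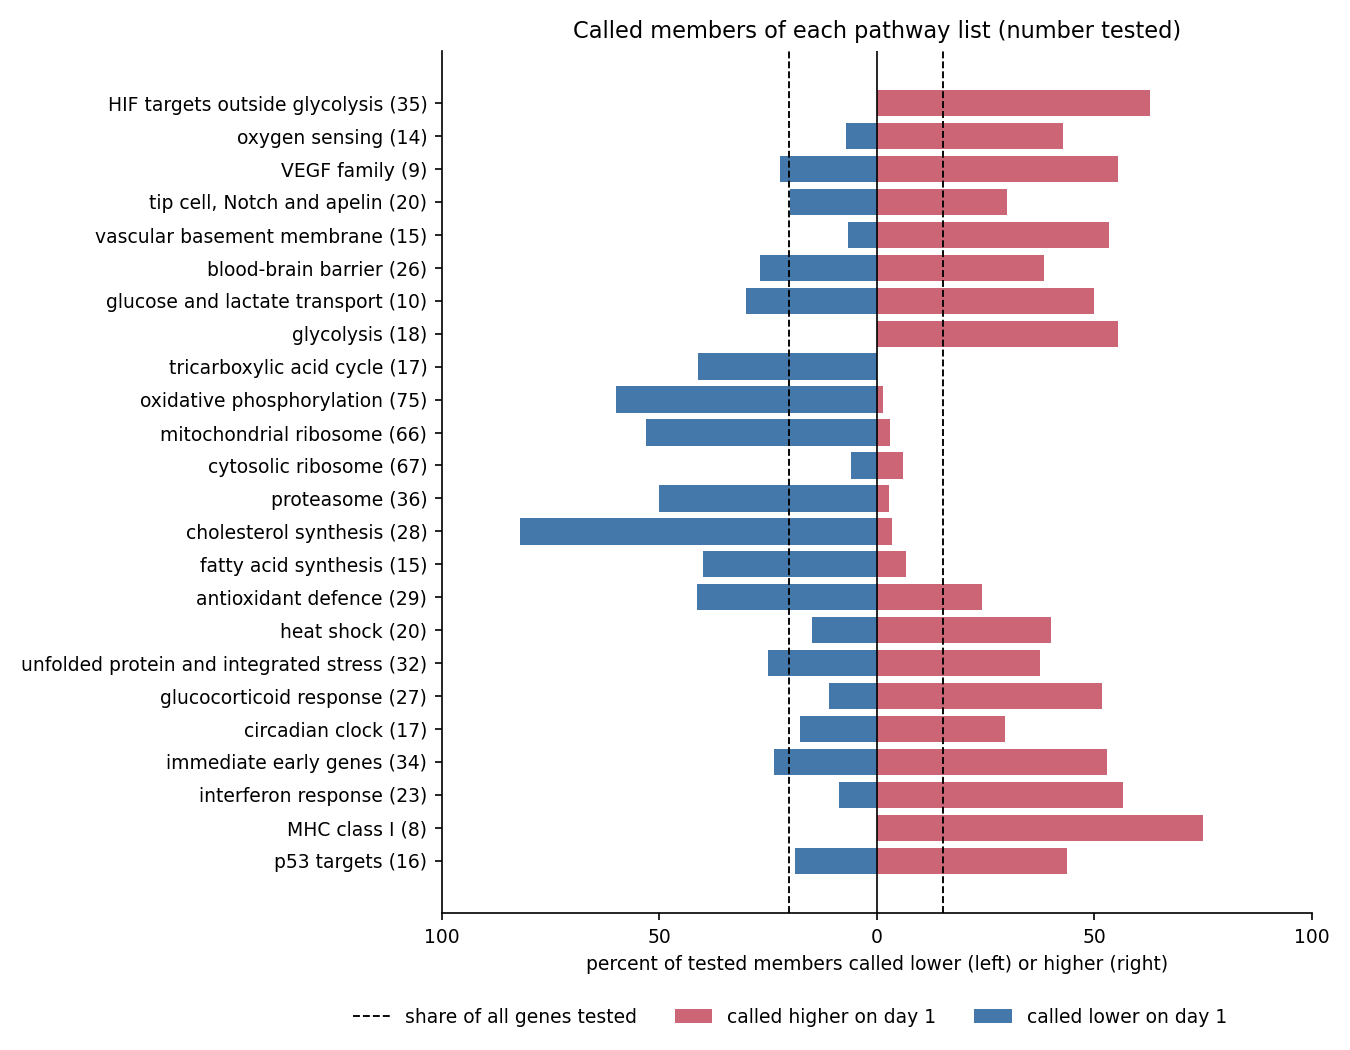
Share of the tested members of 24 pathway lists that were called higher (right) or lower (left) on day 1, with the number tested in brackets; the dashed lines give the shares over all genes tested, 15.3% higher and 20.2% lower. HIF targets (62.9% higher) and cholesterol synthesis (82.1% lower) lie furthest to the right and left among lists of over 20 members, and the cytosolic ribosome lies inside both lines.

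Receptors and channels of neurons were called in both directions, as were all genes, with 15.3% called higher and 20.2% lower. The AMPA receptor subunit Gria1 fell from -0.07 and -0.09 to -0.58 and -0.59 and the NMDA subunit Grin2a by 0.48, while the kainate subunit Grik2 rose by 0.53. Of 16 glutamate receptor subunits 5 were called lower (3, 2, 3 and 3 with 1 array left out) and 2 higher. Of 13 GABA-A receptor subunits 5 were called lower (2, 3, 2 and 2) and 2 higher. The potassium channel Kcnk2, a leak channel opened by stretch and lipids, measured 1.36 and 1.37 against 2.90 and 2.83, and Kcnj4 rose by 1.34. Potassium channels as a whole were called higher in 8 of 32 (25%) and lower in 9 (28.1%), the lowest being the choroid plexus channel Kcnj13.

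Markers of resident cells were mixed, beside 15.3% of all genes called higher and 20.2% lower. Newborn neuron markers were called lower in 8 of 9 (5, 4, 7 and 4 with 1 array left out), with Tubb3, a neuronal tubulin, at -0.77 and doublecortin (Dcx) at -0.51. Among astrocyte markers 9 of 15 were called higher (5, 6, 5 and 8) and 3 lower. Vim, the filament protein of immature and reactive glia, measured 0.70 and 0.71 in normoxia and 1.89 and 1.88 on day 1, while Gfap fell by 0.34 ± 0.05 and Aldh1l1 by 0.61. Microglial markers were called higher in 6 of 16 and lower in 2, with the growth factor receptor Csf1r at 0.59, not called with the mean of probes, and Aif1 not called at -0.23. Mbp, myelin basic protein, was not called at -0.01, and the oligodendrocyte precursor genes Neu4 and Olig2 fell by 1.03 and 0.56, the latter not called with the mean of probes. Of the pericyte markers the potassium channel Kcnj8 rose by 1.12 and smooth muscle Tagln fell by 0.83.

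Day 1 was set directly against the mean of the day 3 and day 7 groups, a comparison that shares the day 1 arrays with the one above. Called genes numbered 12885 (60.5%), 5570 higher (26.2%) and 7315 lower (34.3%) on day 1. Differences of at least 2-fold numbered 1780 (8.36%), 1384 higher (6.5%) and 396 lower (1.86%). Of all 12885 calls, whatever their size, 43.2% were higher, against 27.4% of all calls with median centring and 26.7% with normexp. Those settings moved the median of all genes from -0.05 to -0.25 and -0.21. Most calls of at least 2-fold were higher on day 1. Among the 5 largest measured differences upward, the dopamine receptor Drd2 was 4.56 higher on day 1. The others reported here were not well above background on day 3 or day 7, which leaves lower bounds of 21.3-fold for Lhx8, 8.12-fold for Tulp2 and 6.45-fold for the homeobox gene Isl1. All 20 striatal markers tested, from a list chosen with earlier results of these data known, were called higher than in the later groups. Among the 5 largest downward were Ttr at -4.92 and Sostdc1 at -3.78. Tmem27 and the pheromone receptor Vom2r30, not well above background on day 1, were at least 9.86-fold and at least 3.16-fold lower. The later arrays of Vom2r30 were spread, at -1.98 and -5.37 on day 3 and -5.62 and -8.12 on day 7 (adjusted p from limma = 0.0477). Cldn2, below background on both day 1 and day 7, has no fold here. For the choroid plexus genes the later groups themselves differed, with summed signals of 172 to 184 on day 3 and 16.2 to 16.9 on day 7.

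Genes of the vessel and oxygen response differed in how day 1 stood to the later groups. Angpt2 was 2.82 ± 0.04 higher on day 1 (adjusted p from limma = 7.06e-06), with -0.55 and -0.61 on day 3 and -2.21 and -2.30 on day 7. Vegfa was not called in this contrast, at 0.11 ± 0.06 (adjusted p = 0.164), with 4.14 and 4.26 on day 3 and 4.0 and 4.14 on day 7. Slc16a3 was 0.78 higher on day 1, Pecam1 0.76, Hmox1 0.73 and Pdk1 0.65. Of the activity genes Arc was 1.11 and Fos 0.86 higher on day 1. Gfap, called lower than normoxia on day 1, was 1.07 higher on day 1 than in the later groups.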

How the data were processed

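Hippocampal total RNA was hybridised to 8 single-colour Agilent rat arrays, 2 in each of 4 groups taken from the labels. The deposited scanner files hold, per the file headers, each spot's processed signal intensity from Agilent Feature Extraction 11.5.1.1, subtracted for background and not scaled between arrays. The scaling of the deposited log2 values is not stated. After 1 constant per array, 96.7% to 97.4% of them lay within 0.05 of the values used here, and they were tried as an alternative.

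Control spots and outlier spots were dropped, spots of 1 probe averaged in log2, and the 75th percentile over 30367 probes taken off each array. Of 30346 complete probes 24678 passed, those well above background in both arrays of some group. The brightest passing probe stood for its gene, giving 21296 genes, of which 14470 carry a symbol. limma 3.58.1 in R 4.3.3 (lmFit, eBayes; data.table package, version 1.17.8) was fitted to all 8 arrays with a mean per group (4 residual degrees of freedom), tested from both sides and adjusted by Benjamini-Hochberg over all genes. The fit was tested on simulated data. Tables and plots used Python 3.11.15, pandas 2.3.3, numpy 2.4.6 and matplotlib 3.10.9. The low number of arrays limits the precision.

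A group not well above background on either array was set to the higher of its own signal and the lowest signal well above background, which gives the folds written as at least. The members and the 69 lists (1369 of 1449 members tested) were chosen with earlier results of these data known. Genes named were the 12 largest called rises and falls without overlap, the 5 largest each way against the later groups, up to 4 called members of smallest p in each direction of a list, and 32 fixed genes; 28 further list members (Atp5j2, Cav1, Dhcr7, Gbe1, Hmgcs1, Insig1, Jag1, Kdm3a, Lamc1, Ndrg1, Ndufs7, Npas4, P4ha1, Prlr, Ramp1, Srebf2, Stc2, Timp1, Txn1 and Vegfb, and the uncalled Aplnr, Arnt, Car9, Epo, Mt3, Pgf, Tek and Tie1) were chosen after their values were seen. Some genes that the rule takes in are not reported here. Alternatives were quantile normalization, median centring, normexp with an offset of 50, the deposited values, dropping the filter, requiring signal on all 8 arrays, the mean of probes, an intensity trend, removal of the GC trend of probes, the 2 groups alone, a replicate block, an adjusted p under 0.01 and leaving out each array. Arrays numbered alike were not treated as pairs, since the labels tie no numbers together. Promoters came from the RefSeq table of build GRCr8, matched by symbol.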

Additional observations from a re-analysis of the deposited data

Results flagged for a closer look

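In the direct contrast of day 1 with the mean of the day 3 and day 7 groups, tested with limma in the fit of all genes, 11 genes reported here differed past the threshold and by at least 2-fold, out of the 5 largest differences each way and the 32 fixed genes; genes named under the other parts of the naming rule were not counted. Those higher on day 1 were Drd2 by 4.56, Angpt2 by 2.82, Arc by 1.11 and Gfap by 1.07 on the log2 scale, and Lhx8, Tulp2 and Isl1, not well above background in the later groups, by at least 21.3-fold, 8.12-fold and 6.45-fold. Those lower on day 1 were Sostdc1 at -3.78 and Ttr at -4.92, and Tmem27 and Vom2r30, not well above background on day 1, by at least 9.86-fold and 3.16-fold. Vom2r30 was not called between day 1 and normoxia.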

How the results depend on the processing

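The count of 7559 genes called between day 1 and normoxia ranged from 4350 to 5057 when 1 array was left out, and was 3968 at an adjusted p under 0.01. The 761 genes at least 2-fold different became 321 with normexp and 426 when all 8 arrays had to be well above background, which removes genes dim on day 1, and 654 to 704 with 1 array left out. With the replicate number as a block, though the deviations of same-numbered arrays did not correlate between normoxia and day 1 (r = -0.02), 6932 genes were called, 729 of them at least 2-fold, and 12577 against the later groups. The count against the later groups stayed between 10342 and 14724 under all its alternatives. Il6 turned from -0.55 to 0.0066 with normexp and to 0.19 with the deposited values, and Pdhx from -0.27 to 0.11 with the mean of probes; neither was called there, and the cause was not tested. Of the 433 genes that the naming rule takes in, 425 were called and 340 of them stayed called in all 4 fits with 1 array left out. The number of arrays, 2 a group on 1 slide, and signals near background on day 1 limit what can be told.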

Other observations

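Among immune and death-related genes not described above, Cd52, a surface glycoprotein of lymphocytes and other leukocytes, measured -4.03 and -4.11 in normoxia and -0.87 and -0.81 on day 1, a rise of 3.23 ± 0.05 (limma's adjusted p = 1.40e-05). It was the 1 gene called higher of 18 tested markers of lymphocytes and antigen presenting cells, of which 6 were called lower (3, 4, 4 and 3 with 1 array left out), among them the MHC class II genes Cd74 at -1.62 and RT1-Da at -1.28, with a median of -0.39. Of 8 tested neutrophil markers 2 were called higher, 2 lower and 4 not called. Their median was -0.06, with differences from -0.89 to 1.72. The calgranulins S100a9 and S100a8 rose by 1.72 and 1.35, while the antimicrobial peptide Camp fell by 0.44. Il1b, the cytokine interleukin-1 beta, measured -5.63 and -5.71 against -4.17 and -4.19. Cytokines as a set were called lower in 5 of 11 tested and higher in 2, with a median of -0.37. Chemokines were evenly split, with 6 of 16 tested called higher and 6 lower. Ccl2 and Cxcl1 fell by 0.75 and 0.64, while Ccl6, Ccl3, Cxcl14 and Ccl5 were called higher. Ccng1, cyclin G1, a target of p53, rose from -1.11 and -1.09 to 0.57 and 0.63, and Bbc3, another target that promotes cell death, by 0.61, whereas Cdkn1a, the best known target, was not called at 0.06 ± 0.12. Bik, a pro-apoptotic member of the Bcl2 family, rose by 2.50 ± 0.22 from -6.70 and -6.29, and Mcl1, a protective member, by 0.50 ± 0.04. Blood moved in the same arrays: red blood cell markers summed to 176 to 192 in normoxia and 302 to 312 on day 1, with Slc4a1, the anion exchanger of red cells, at 3.53 and Ahsp, a haemoglobin chaperone, at 3.33, and the platelet genes Itga2b and Pf4 at 0.89 and 0.77. The part of blood in the leukocyte genes was not tested.

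Of growth factors, Igf2, which the choroid plexus and leptomeninges produce, fell from 3.22 and 3.21 to 1.64 and 1.64, beside the fall of both marker lists given above. Neurotrophins and their receptors were called higher in 7 of 18 (5, 4, 5 and 6 with 1 array left out) and lower in 7, the highest being Ret, the receptor of glial-derived neurotrophic factors, at 1.1 ± 0.05 with 0.27 and 0.40 at its 2 other probes.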
